A study of Mus musculus with 8 samples.

Results

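The genes described here are 41 interferon-stimulated and major histocompatibility complex (MHC) class I genes, taken by name from a deposited count table of 35275 mouse genes. Of these, 30 are interferon-stimulated genes and 11 belong to class I antigen presentation, and 27 of the 41 had enough counts to be tested among 12801 tested genes. Messenger RNA was sequenced from an epicardial line of mouse origin, named MEC or MCEC in the labels and grown in high-glucose DMEM with fetal bovine serum. All cells were transduced with a lentivirus, which carried an empty vector in the 4 EV libraries and a CRISPR/Cas9 single guide RNA against Hdac3, a histone deacetylase, in the 4 KO libraries. No interferon, virus or other stimulus is named in the labels, and nothing there says whether the KO cells were 1 clone or whether replicates were separate cultures. The p-values therefore measure the spread between these libraries, which may be technical.

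Groups were taken from the titles. For KO replicate 1 the title and the transduction label disagree, as the label gives the empty vector. Hdac3 mRNA was 61.9 ± 1.53 CPM (counts scaled for library size and composition by TMM; SD, n = 4) in EV and 61.6 ± 3.23 CPM in KO (edgeR adjusted p = 0.956), so the transcript level did not separate the labels, and KO below means a library labelled KO. A total transcript count does not show whether a coding sequence carries a small edit. Library totals ranged from 18063745 to 24564892 counts, and 3 counts, taken as the limit of detection, corresponded to 0.125 to 0.164 CPM. Across the tested genes the first principal component held 48.1% of the variance and placed every EV library on one side and every KO library on the other. Epicardial markers were present in both groups, with Upk3b at 1858 CPM in EV and 1465 CPM in KO and Wt1 at 341 and 263 CPM. Of 15 tested epicardial markers 4 were higher in KO (Krt18, Krt8, Msln and Krt19) and 4 lower (Tcf21, Wt1, Upk3b and Lrrn4). At an edgeR adjusted p of at most 0.05, 53.3% of the 15 thus differed, against 26.0% of all tested genes. Aldh1a2, another epicardial marker, was too low to be tested. The leukocyte marker Ptprc had at most 1 count in any library.

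Type I interferons signal through a receptor on the cell surface to a complex that contains STAT2 and IRF9 and binds a short DNA element, the interferon-stimulated response element (ISRE), in the promoters of antiviral genes. Interferon gamma acts at another element, the gamma-activated sequence (GAS), and through the induced factor IRF1. Class I molecules, made of a heavy chain and beta-2-microglobulin, show peptides cut by the proteasome and carried into the endoplasmic reticulum by the TAP transporter to T cells. Cells that are not immune cells, such as the mesothelial cells of the epicardium, also carry this machinery at a resting level.

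The promoter stretches below show the letters of these elements in several of the genes whose values follow. They are shown for genes that rose in KO (Ifit1, Ifit3, Bst2 and Irf1), for the near copy of Ifit3 (Ifit3b), and for genes that hold the same letters and did not pass the test (Isg15, Ddx60 and B2m). Sequences are from RefSeq, GRCm38.p6 (the assembly also called mm10), on the gene's strand and 5′ to 3′, with capitals marking the ISRE letters, or for Irf1 the GAS letters.
Ifit1, chr19:34640770-34640828, plus strand: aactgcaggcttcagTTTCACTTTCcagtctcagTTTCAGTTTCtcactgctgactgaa
Ifit3, chr19:34583358-34583431, plus strand: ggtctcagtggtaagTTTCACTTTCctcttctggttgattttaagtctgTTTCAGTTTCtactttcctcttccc
Ifit3b, chr19:34607754-34607827, plus strand: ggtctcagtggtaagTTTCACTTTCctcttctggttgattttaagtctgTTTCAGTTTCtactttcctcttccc
Bst2, chr8:71537572-71537617, minus strand: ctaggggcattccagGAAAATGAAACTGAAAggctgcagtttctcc
Isg15, chr4:156200860-156200911, minus strand: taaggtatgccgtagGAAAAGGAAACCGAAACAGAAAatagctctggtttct
Ddx60, chr8:61928019-61928086, plus strand: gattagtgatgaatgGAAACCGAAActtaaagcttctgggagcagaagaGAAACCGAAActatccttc
B2m, chr2:122147533-122147572, plus strand: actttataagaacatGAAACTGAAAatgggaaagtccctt
Irf1, chr11:53769909-53769947, plus strand: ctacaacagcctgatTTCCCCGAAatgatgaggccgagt

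Promoter windows of 300 bases, from 250 before to 50 after a RefSeq start, were matched for 30 of the 41 genes. There were 34 windows, as Ifit2, Irf1, Irf9 and H2-K1 had 2 each, and 17 of the 34 were placed at the outermost start of the RefSeq gene. No window was matched for Oas2, Mx1, Mx2, Ifi27, Rtp4, Parp14, Zbp1, Dhx58, Usp18, Tap2 and Nlrc5. The ISRE was searched as a pair of GAAA with any 2 bases between them, or a pair of TTTC so spaced (the other strand), and stood in a window of 14 of the 30 genes (46.7%) against 3.99% of 27025 RefSeq genes with windows of the same length. Those 14 were Isg15, Ifit1, Ifit3, Ifit3b, Oas1a, Oas3, Rsad2, Bst2, Ddx60, Ifih1, Ddx58, Stat2, B2m and Erap1. The GAS was searched as TTCNNNGAA, which reads the same on both strands, and stood in a window of 5 of the 30 genes (16.7%; Ifit2, Oas1a, Bst2, Irf1 and Psmb8) against 9.55% of the RefSeq genes. Ifit2 and Irf1 held it in 1 of their 2 windows. The 3 ISRE matches of Isg15 overlap each other, as do both matches of Bst2, and the GAS match of Bst2 overlaps its ISRE. The stretches of Ifit3 and Ifit3b printed above were identical at 74 of 74 bases. A match describes the letters of the window and was not tested for binding.

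The resting levels of the 41 genes spanned a wide range. On the FPKM scale, which is per length and so allows genes to be set side by side, B2m, the invariant light chain, was highest in EV at 556 ± 9.14 FPKM (SD, n = 4). Tapbp, the chaperone that bridges class I to TAP, followed at 102 ± 0.845 FPKM, and the heavy chain H2-D1 stood at 102 ± 5.99 FPKM, so their order was within the spread. Bst2, a membrane protein that tethers budding virus, came next at 73.3 ± 8.04 FPKM, then the heavy chain H2-K1 at 44.1 ± 1.68 FPKM and Ifi27 at 34.3 ± 1.92 FPKM. Psmb10 (21.6 FPKM) and Irf1 (21.5 FPKM) lay within each other's spread, and were followed by Erap1, Ddx58 and Ifit2, which completed the 11 genes at or above 10 FPKM. At the other end 19 of the 41 genes had an EV mean under 1 FPKM, among them Ifit1, Ifit3, Oas1a, Oas2, Oas3, Mx1, Mx2, Rsad2, Psmb8 and Psmb9. The class I chains and Tapbp thus stood at the top of the order, and many antiviral effectors at the bottom.

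**Figure D1:**
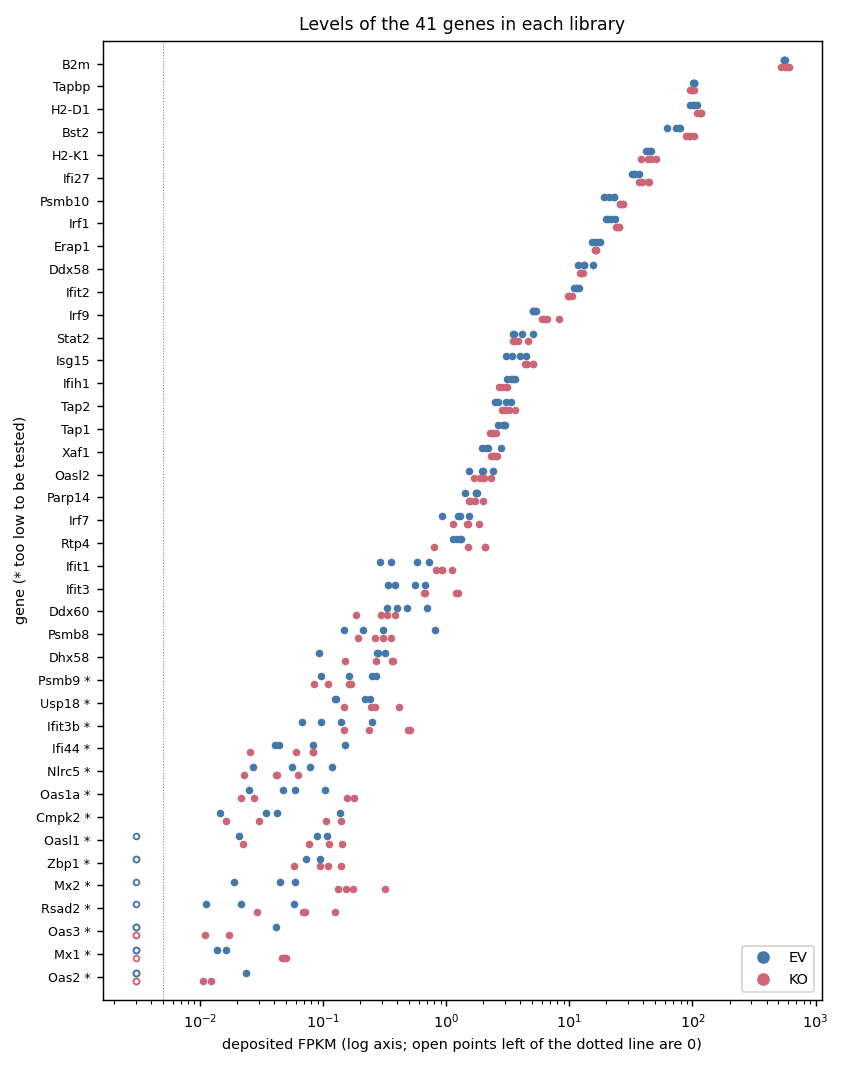
Deposited FPKM of each of the 41 genes (log axis) in the 4 EV libraries (blue) and the 4 KO libraries (red), ordered by the EV mean, with open points left of the dotted line for values of 0 and an asterisk for the 14 genes too low to be tested. The order runs from B2m, at 556 FPKM in EV, to Oas2, at 0.00591 FPKM.

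Between the groups, 8 of the 27 tested genes rose in KO and none fell, at a threshold of 0.05 on edgeR's adjusted p. Of all 12801 tested genes 26.0% passed the threshold, 12.6% being higher in KO and 13.4% lower. The risers were the transcription factors Irf9 and Irf1, the antiviral effectors Bst2, Ifi27, Ifit1 and Ifit3, the heavy chain H2-D1 and the immunoproteasome subunit Psmb10. The fold of KO over EV lay between 1.16 and 1.36 for the 6 abundant risers, and was 2.003 for Ifit1 and 2.01 for Ifit3, both of low level. The median log2 difference of the 27 genes, KO over EV, was 0.16, against 0.0050 for all tested genes. At an unadjusted p under 0.05, 3 genes were lower in KO (Ifit2, Ddx60 and Tap1) and 9 higher. DESeq2 and limma-voom called none lower. With library totals in place of TMM factors, the same 8 genes were higher and 3 were called lower (Ifit2, Ddx60 and Tap1). That scaling turned the split of all calls from 1613 higher and 1711 lower to 1039 and 2414, and limma on log2(FPKM + 1) gave 896 and 2076. The values of EV and KO did not overlap for 11 of the 27 genes, against 26.5% of all tested genes. None of the 27 passed the filter on low counts through the libraries of one group alone. Without KO replicate 1, whose labels disagree, the 8 genes kept their call and Ifit3b and Rtp4 joined them. Without KO replicates 2 and 3 together, 6 kept it, and Ifit3 and Ifi27 did not.

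By class, 6 of 18 tested interferon-stimulated genes rose, with a median log2 difference of 0.28, and 2 of 9 tested class I genes, with a median of 0.07. By level, 2 of the 8 tested genes with a mean under 5 CPM rose, where 6.33% of all tested genes of that level were higher in KO. Of the 19 at or above 5 CPM 6 rose, where 14.2% of all such genes were higher in KO. Among the genes that rose 7 had a promoter window, and 3 of these (Ifit1, Ifit3 and Bst2) held the ISRE letters, near the share over all matched genes (14 of 30, 46.7%). The windows of Irf9, H2-D1 and Psmb10, which also rose, held neither the ISRE nor the GAS letters.

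**Figure D2:**
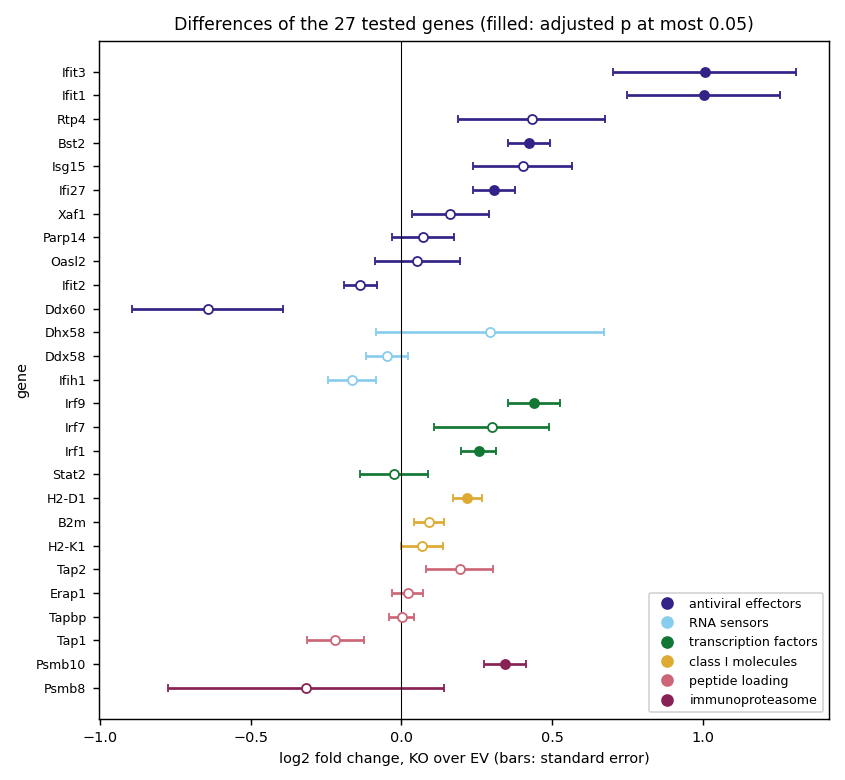
Log2 fold change of KO over EV for the 27 tested genes, with bars for the standard error, coloured by role and filled where edgeR's adjusted p is at most 0.05. The 8 filled points lie right of 0, from 0.22 for H2-D1 to 1.01 for Ifit3, and Ddx60 lies farthest left at -0.64.

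Coordinates of genes are those of the deposited table, on mm10. Irf9 (chr14:55603571-55610030, plus strand), the DNA-binding subunit of the complex formed with STAT2, rose in KO. Its levels in EV replicates 1 to 4 were 20.2, 19.1, 19.3 and 20.3 CPM, and those in KO were 25.0, 32.0, 23.8 and 26.2 CPM. All KO libraries lay above all EV libraries, with KO replicate 2 the highest. The mean went from 19.7 ± 0.618 to 26.8 ± 3.64 CPM (SD, n = 4; log2 fold change 0.44, SE 0.086, edgeR adjusted p = 0.000758). The gene overlaps Rnf31 on the same strand, whose level was 17.9 CPM in EV and 19.97 CPM in KO (adjusted p = 0.141 in edgeR), and how reads of shared exons were counted is not known here.

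Irf1 (chr11:53770014-53778374, plus strand), a transcription factor of the interferon gamma response and of class I genes, also rose. It stood at 45.8, 49.0, 43.8 and 41.8 CPM in the EV libraries and at 54.9, 52.8, 55.3 and 52.7 CPM in KO. The groups did not overlap and the KO libraries lay close together. The log2 fold change was 0.26 (SE 0.058, edgeR adjusted p = 0.00274). Irf7, the factor that amplifies type I interferon production, was 2.74 CPM in EV and 3.40 CPM in KO (edgeR adjusted p = 0.272), and overlaps the more abundant Phrf1 on the opposite strand. Stat2, the partner of IRF9, was 17.6 and 17.3 CPM, with a log2 difference of -0.024 (edgeR adjusted p = 0.90) that changed sign when EV replicate 4 or KO replicate 3 or 4 was left out.

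Among the antiviral effectors, Bst2 (chr8:71534264-71537437, minus strand) had the smallest adjusted p of the 27 tested genes. EV replicates 1 to 4 gave 59.1, 59.4, 55.4 and 46.4 CPM, and KO replicates gave 72.3, 74.4, 79.97 and 68.6 CPM. The lowest KO library was above the highest EV library. The mean rose from 55.1 ± 6.06 to 73.8 ± 4.74 CPM (SD, n = 4; log2 fold change 0.42, SE 0.071, edgeR adjusted p = 0.000166).

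Ifi27 (chr12:103434211-103440239, plus strand) encodes a mitochondrial protein. Its levels were 31.1, 35.0, 33.3 and 32.3 CPM in EV and 36.2, 44.0, 43.5 and 39.0 CPM in KO. The groups did not overlap, but KO replicate 1 lay close to the highest EV library. The log2 fold change was 0.31 (SE 0.069, edgeR adjusted p = 0.00276). KO replicates 2 and 3, the highest for Ifi27, also held the most transcripts of liver genes: the sum over 28 such genes was 15.6 to 20.2 CPM in EV, 25.3 and 19.6 CPM in KO replicates 1 and 4, and 41.5 and 40.8 CPM in KO replicates 2 and 3. Without those 2 libraries Ifi27 no longer passed (edgeR adjusted p = 0.107), and the part of the liver transcripts in its rise was not tested.

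**Figure D3:**
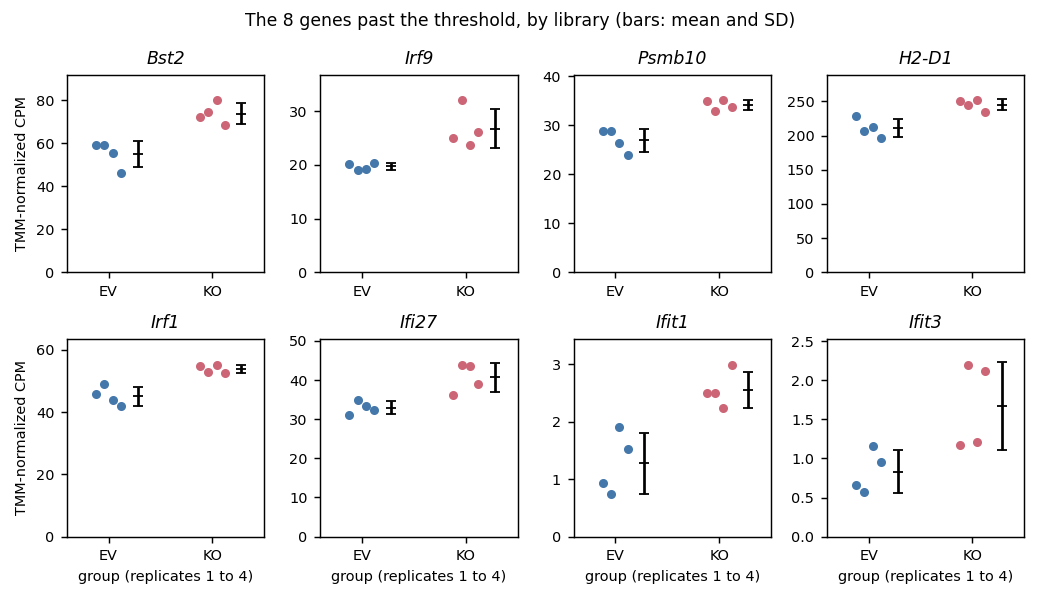
TMM-normalized CPM in each library for the 8 genes past the threshold, each panel starting at 0, with EV in blue, KO in red, and black bars for mean and SD. In each panel the 4 KO points lie above the 4 EV points, with the narrowest gap relative to the level for Ifit3 (1.16 CPM in EV replicate 3 and 1.17 CPM in KO replicate 1).

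The Ifit genes encode proteins that bind viral RNA and lie together on chromosome 19, with Ifit2, Ifit3, Ifit3b and Ifit1 within 99.3 kb (chr19:34550694-34650009). Ifit1 gave 17, 17, 41 and 32 counts in EV and 47, 51, 52 and 72 counts in KO, or 0.932, 0.743, 1.90 and 1.52 CPM against 2.49, 2.50, 2.24 and 2.99 CPM. EV replicates 1 and 2 were low, EV replicates 3 and 4 intermediate, and all KO libraries higher. The log2 fold change was 1.002 (SE 0.254, edgeR adjusted p = 0.00637).

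Ifit3 gave 12, 13, 25 and 20 counts in EV and 22, 45, 28 and 51 counts in KO, or 0.658, 0.568, 1.16 and 0.949 CPM against 1.17, 2.20, 1.21 and 2.12 CPM. KO replicates 2 and 4 stood above the rest, while KO replicates 1 and 3 only just cleared the highest EV library. The log2 fold change was 1.01 (SE 0.303, edgeR adjusted p = 0.0195). The call depended on single libraries, as it was lost on leaving out EV replicate 2 (edgeR adjusted p = 0.0708), KO replicate 2 (0.0696) or KO replicate 4 (0.0753), and on leaving out KO replicates 2 and 3 together (0.0902). Ifit3b, listed in the table under its older name I830012O16Rik, showed the same 2 high libraries, with 9, 3, 6 and 4 counts in EV and 9, 21, 7 and 24 counts in KO. It was too low for the filter, and passed when no filter was used (edgeR adjusted p = 0.0352). Reads of these near copies may be shared between them, so they are not independent measurements.

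Ifit2, of the same cluster, did not follow them. Its levels were 41.2, 43.0, 42.5 and 44.6 CPM in EV and 38.8, 38.5, 37.9 and 40.6 CPM in KO. Every KO library lay below every EV library, by little. The log2 difference was -0.14 (SE 0.056), which missed the threshold (edgeR adjusted p = 0.08) but passed with library totals and in limma on FPKM.

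The other tested effectors did not pass. Isg15, a ubiquitin-like modifier, was 2.76 ± 0.439 CPM in EV and 3.67 ± 0.297 CPM in KO (log2 difference 0.40, edgeR adjusted p = 0.0803), with groups that did not overlap. It passed in 2 of 19 alternatives, limma on log2(FPKM + 1) and on log2(FPKM + 0.1) with a filter. Rtp4 was 1.92 and 2.57 CPM (0.43 on the log2 scale, edgeR adjusted p = 0.211, and 0.0309 without KO replicate 1), Xaf1 5.76 and 6.46 CPM, Oasl2 6.01 and 6.24 CPM, and Parp14, an ADP-ribosyltransferase, 12.2 and 12.8 CPM. Ddx60, a helicase of the antiviral response, was the lowest relative to EV, at 2.81 ± 0.938 against 1.82 ± 0.510 CPM (log2 difference -0.64, SE 0.25, edgeR adjusted p = 0.0656). Its EV libraries ranged from 1.97 to 4.13 CPM and its KO libraries from 1.12 to 2.33 CPM, so the groups overlapped.

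The 3 cytosolic RNA sensors had no call. Ddx58, which encodes RIG-I, was 44.7, 49.2, 50.2 and 59.0 CPM in EV and 48.7, 48.4, 48.4 and 50.8 CPM in KO, with EV replicate 4 the highest of all and the KO libraries inside the EV range. The log2 difference was -0.049 (edgeR adjusted p = 0.648) and turned to 0.031 without EV replicate 4. Ifih1, which encodes MDA5, was 18.3 CPM in EV and 16.3 CPM in KO (-0.16 on the log2 scale, edgeR adjusted p = 0.147). Dhx58, the regulatory member of the family, was near the filter at 0.569 and 0.706 CPM.

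Of the class I molecules, the heavy chain H2-D1 rose and the other chains did not pass. H2-D1 (chr17:35262730-35267499, plus strand) was 228, 207, 213 and 196 CPM in EV and 251, 245, 251 and 234 CPM in KO. The lowest KO library lay just above the highest EV library. The mean went from 211 ± 13.5 to 245 ± 8.17 CPM (SD, n = 4; log2 fold change 0.22, SE 0.049, edgeR adjusted p = 0.00254).

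H2-K1 (chr17:33996017-34000333, minus strand), the other classical heavy chain of the list, was 80.3, 83.9, 83.5 and 77.5 CPM in EV and 83.5, 72.3, 97.0 and 87.9 CPM in KO. The KO libraries spread on both sides of the EV range. The log2 difference was 0.07 (edgeR adjusted p = 0.503), and -0.00019 without KO replicate 3. Class I heavy chains are near copies of each other, so reads may be split between them in a way the deposited counts do not show.

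B2m (chr2:122147686-122153083, plus strand) gave 469, 462, 469 and 480 CPM in EV and 517, 453, 533 and 499 CPM in KO. Its KO replicate 2 was the lowest of all libraries and the other KO libraries were the highest. The log2 difference was 0.09 (edgeR adjusted p = 0.192), and B2m passed only when KO replicate 2 was left out. Nlrc5, the transactivator of class I genes, had 7, 12, 4 and 17 counts in EV and 3, 9, 7 and 7 counts in KO, too few to be tested.

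The 4 genes of peptide loading and trimming had no call in edgeR, DESeq2 or limma-voom, and Tap1 alone was under 0.05 before adjustment. Tapbp was 289, 290, 294 and 290 CPM in EV and 288, 292, 303 and 280 CPM in KO, a log2 difference of 0.00056 (edgeR adjusted p = 0.994) whose sign depended on the scaling. Erap1, which trims peptides in the endoplasmic reticulum, was 60.9, 63.6, 67.9 and 69.5 CPM in EV and 65.8, 67.1, 67.2 and 65.7 CPM in KO (0.020 on the log2 scale with TMM and -0.031 with library totals, edgeR adjusted p = 0.816 with TMM). Both genes thus had KO values around those of EV. The transporter subunits stood on opposite sides of EV: Tap1 was 11.001 ± 0.648 against 9.45 ± 0.460 CPM (-0.22, edgeR adjusted p = 0.0989) with groups that did not overlap, and Tap2 was 9.76 against 11.2 CPM (0.19, edgeR adjusted p = 0.224). Tap1 and Tap2 lie with Psmb9 and Psmb8 within 34.3 kb (chr17:34181988-34216321), and Tap1 overlaps Psmb9 on the opposite strand.

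The immunoproteasome subunits Psmb8, Psmb9 and Psmb10 replace the constitutive catalytic subunits Psmb5, Psmb6 and Psmb7, and were at very different levels. Psmb10 (chr8:105935728-105938392, minus strand) was 28.8, 28.8, 26.3 and 23.9 CPM in EV and 35.0, 32.9, 35.1 and 33.8 CPM in KO. The KO libraries lay together above the EV range. The mean rose from 26.96 ± 2.33 to 34.2 ± 1.05 CPM (SD, n = 4; log2 fold change 0.34, SE 0.069, edgeR adjusted p = 0.000985).

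Relative to Psmb7, the subunit it replaces, Psmb10 had 19.6, 18.9, 17.9 and 19.3% of the FPKM in EV and 23.5, 22.5, 22.5 and 23.1% in KO. The means were 18.9 ± 0.724% and 22.9 ± 0.524% (SD, n = 4), and the groups did not overlap. A two-sided exact permutation test of the log2 ratio gave p = 0.0286, the smallest that 70 arrangements of 8 libraries allow, and 0.0857 after adjustment over the 3 ratios. Psmb7 itself was 130 CPM in EV and 137 CPM in KO (edgeR adjusted p = 0.403).

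Psmb8 and Psmb9 were at most 1.02% of their counterparts in every library. Psmb8 had 28, 9, 6 and 12 counts in EV and 13, 12, 12 and 9 counts in KO, with EV replicate 1 well above the rest, and stood at 0.532 ± 0.369% of Psmb5 in EV and 0.384 ± 0.0627% in KO (SD, n = 4; exact permutation p = 0.714, adjusted 0.714). Its log2 ratio, -0.21, became 0.19 without EV replicate 1. Psmb9 had 5, 16, 10 and 16 counts in EV and 6, 10, 11 and 6 counts in KO, and stood at 0.202 ± 0.0979% and 0.120 ± 0.0415% of Psmb6 (exact permutation p = 0.229, adjusted 0.343). Psmb10 thus rose while its low partners Psmb8 and Psmb9 showed groups that overlapped, and that the 3 subunits differ in response was not tested.

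**Figure D4:**
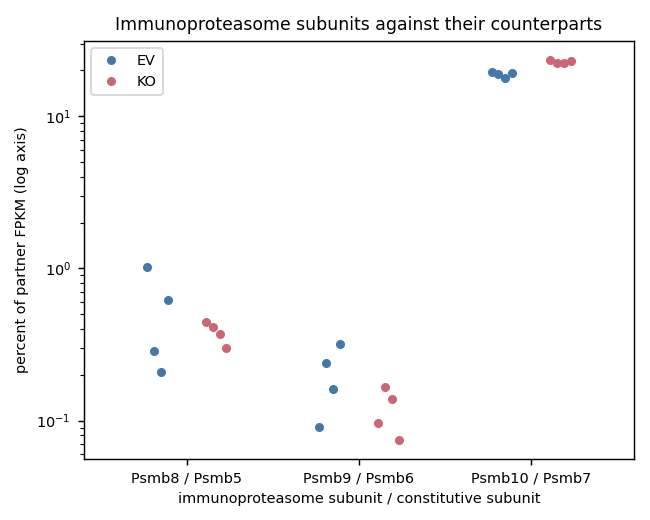
Percent of the FPKM of the constitutive partner held by each immunoproteasome subunit (log axis) in the EV (blue) and KO (red) libraries. Psmb10 lies between 17.9 and 19.6% of Psmb7 in EV and between 22.5 and 23.5% in KO, while Psmb8 and Psmb9 scatter around or under 1% with overlapping groups.

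The 14 genes too low to be tested included effectors that interferon is known to induce strongly, and their highest count was 24. Besides Ifit3b, Nlrc5 and Psmb9, they were Oas1a, Oas2, Oas3 and Oasl1 of the oligoadenylate synthetase family, and Mx1 and Mx2 of a GTPase family. The others were Rsad2 (viperin), Cmpk2, Ifi44, the nucleic acid sensor Zbp1 and Usp18, a protease that removes ISG15 and dampens receptor signalling. In 9 of the 14 the mean was higher in KO.

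Mx2 (chr16:97535308-97560900, plus strand) was the only one of these 14 with groups that did not overlap, with 2, 0, 1 and 3 counts in EV and 15, 9, 9 and 8 counts in KO. The deposited gene type of Mx2 is polymorphic pseudogene. The EV libraries were at or under the limit of 3 counts, at a mean of 0.0746 CPM against 0.489 CPM in KO. Mx2 passed when no filter was used (edgeR adjusted p = 0.00259) and in DESeq2. Its neighbour Mx1 had 1, 0, 1 and 0 counts in EV and 3, 0, 4 and 4 in KO. Rsad2 had 0, 2, 1 and 5 counts in EV and 10, 6, 7 and 3 in KO, and Zbp1 0, 7, 0 and 5 against 6, 4, 11 and 9. Both had more counts in KO with groups that overlapped, and without the filter neither passed (edgeR adjusted p = 0.152 for Rsad2 and 0.232 for Zbp1).

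The synthetases stayed at single counts. Oas1a had 2, 2, 1 and 4 counts in EV and 1, 7, 7 and 1 in KO, Oasl1 had 0, 1, 5 and 4 against 6, 1, 4 and 6, and Oas2 and Oas3 did not exceed 4 counts in any library. Usp18 had 4, 5, 9 and 8 counts in EV and 5, 9, 11 and 18 in KO, Cmpk2 2, 3, 1 and 9 against 1, 2, 8 and 11, and Ifi44 3, 4, 13 and 7 against 2, 7, 8 and 6. All of these overlapped between the groups. Of the 41 genes none was at 0 in every library.

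The rest of the pathway was read from lists around these genes, in the same fit. Counts of calls in these lists stand beside 12.6% higher in KO and 13.4% lower over all tested genes. Interferon ligands were not detected: 20 of 21 ligand genes were at 0 in every library, and Ifnb1 had 1 count, in EV replicate 2. Of 18 tested genes of the receptors and JAK-STAT signalling, 5 were higher in KO and 2 lower, with a median log2 difference of 0.11. Socs3, a feedback inhibitor of STAT3 signalling, was 45.8, 42.5, 41.2 and 35.7 CPM in EV and 62.9, 59.2, 64.5 and 59.7 CPM in KO. Its KO libraries all lay well above EV (log2 fold change 0.58, SE 0.067, edgeR adjusted p = 2.36e-06). The interferon gamma receptor chain Ifngr2 rose from 66.7 to 77.5 CPM and Stat3 from 406 to 456 CPM, while Ptpn2, a phosphatase that acts on JAK and STAT proteins, fell from 35.0 to 29.5 CPM. With library totals or FPKM 2 of the 18 genes were higher, and 3 were when KO replicate 1 or 2, or replicates 2 and 3 together, were left out.

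**Figure D5:**
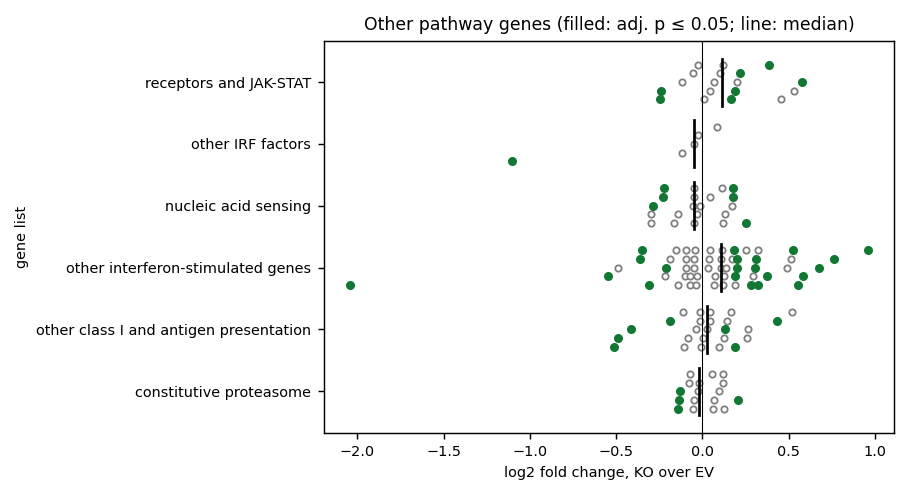
Log2 fold change of KO over EV for the tested genes of 6 lists around the 41 genes, with 1 point per gene, filled where edgeR's adjusted p is at most 0.05, and a black line at each list's median. Points lie on both sides of 0 in every list, and Sp100 (-2.05) and Irf5 (-1.11) lie farthest left.

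Of the other interferon regulatory factors, 1 of 5 tested passed. Irf5, a factor of inflammatory signalling, was 27.3, 21.7, 24.9 and 23.96 CPM in EV and 12.5, 10.7, 11.3 and 10.97 CPM in KO. Every KO library was under the lowest EV library by a wide margin (log2 fold change -1.11, SE 0.088, edgeR adjusted p = 1.84e-08). Irf5 overlaps Tnpo3 on the opposite strand, which was also lower, at 116 CPM in EV and 93.4 CPM in KO (log2 fold change -0.31, edgeR adjusted p = 7.91e-05).

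Among 55 tested interferon-stimulated genes beyond the 41, 15 were higher and 6 lower, with a median log2 difference of 0.10. Sp100, a nuclear body protein, was 2.79, 3.15, 4.44 and 3.84 CPM in EV and 0.743, 1.52, 0.604 and 0.624 CPM in KO, with all KO libraries below EV (log2 fold change -2.05, SE 0.266, edgeR adjusted p = 1.09e-05). The GTPase Tgtp1 rose from 4.30 ± 0.626 to 8.37 ± 0.672 CPM, Znfx1, an RNA helicase, from 35.7 to 46.3 CPM, and Shisa5 from 78.4 to 98.0 CPM. Znfx1 overlaps 1500012F01Rik on the opposite strand, which rose from 29.7 to 42.5 CPM (edgeR adjusted p = 0.0112). Tgtp1 has a near copy, Tgtp2, which was also among the 15. Gbp4 and Gbp9, both of the 15, overlap each other on the same strand. Parp10, also of the 15, overlaps Plec on the same strand, which rose from 203.5 to 291 CPM (edgeR adjusted p = 1.02e-06). Irgm2 overlaps Igtp, which had no call (edgeR adjusted p = 0.458). Reads may be shared in such cases, so the 15 are not all independent measurements. The number higher was 10 in limma on log2(FPKM + 1), 10 without EV replicate 2, and 9 without KO replicates 2 and 3. Of 21 tested genes of nucleic acid sensing 3 were higher and 3 lower (1 and 7 with library totals). With TMM 28.6% were called, near the 26.0% of all tested genes. The genes with the smallest adjusted p included Traf3 (49.5 to 42.4 CPM), Tlr4 (77.0 to 65.6 CPM) and Ticam1 (25.8 to 30.8 CPM).

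Of 25 other class I and antigen presentation genes tested, 3 were higher and 4 lower (28% called, near the 26.0% of all tested genes). The nonclassical heavy chain H2-T23 was 33.6, 38.6, 43.9 and 35.7 CPM in EV and 48.4, 51.3, 53.9 and 51.3 CPM in KO (log2 fold change 0.43, edgeR adjusted p = 0.000163), and H2-Q4, another one, fell from 9.64 ± 0.743 to 6.76 ± 0.448 CPM (-0.51, edgeR adjusted p = 0.00136). Calr, a chaperone of class I assembly, rose from 2176 to 2483 CPM, and the lipid-presenting Cd1d1 fell from 7.69 to 5.46 CPM. Heavy chains of the class I family thus stood higher (H2-D1, H2-T23), lower (H2-Q4) or without a call (H2-K1) in the same libraries. Of the constitutive proteasome 1 of 17 genes was higher (Psmb6, 93.9 to 108 CPM) and 3 lower, among them Psma3 (153 to 139 CPM). Of 11 class II genes 7 were too low to be tested, and Ciita and H2-Aa had at most 2 counts.

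Genes of NF-kB signalling, which also acts on class I promoters, gave 3 higher of 15 tested. They were Bcl3 (10.2 to 17.3 CPM), Nfkb2 (85.1 to 104 CPM) and Ikbkg (51.5 to 59.5 CPM). Nfkb2 overlaps Psd on the opposite strand, which fell from 46.5 to 31.7 CPM (edgeR adjusted p = 4.18e-06). As bulk samples, these libraries do not tell a change in the share of some cells from a change of RNA per cell. Of 27 leukocyte markers, 11 were at 0 in every library, and their summed level was 32.5 to 39.2 CPM in EV and 32.9 to 38.8 CPM in KO. Of the 27, 23 were too low to be tested. The highest count of any marker in a library was 699, most of the sum there, so the sum says little about the other markers. Of the 4 that could be tested, Cd68 was higher in KO (4.74 to 7.89 CPM) and Cd14 was lower (log2 fold change -0.28). The sum over 12 endothelial markers was 30.4 to 32.7 CPM in EV and 22.2 to 24.2 CPM in KO. Of the 12, 8 were too low to be tested, and the highest count in a library was 491, again most of the sum there. Among the 4 tested, Tek was higher in KO, and Kdr and Robo4 were lower. The part of leukocytes or endothelial cells in the class I values was not tested.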

How the data were processed

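Per the labels, total RNA was extracted with Trizol and sequenced on an Illumina instrument. The authors deposited raw counts per gene and FPKM values for the same genes. Per the submitters' processing notes the build is mm10 and DESeq 1.6.3 was used, while DESeq2, at an adjusted p of 0.05, is named in the series design. The sources used here do not give the aligner, counter, annotation release or strand setting, so opposite-strand overlapping genes may share reads. The deposited FPKM equal count over length and column sum for 100% of nonzero values within 1e-06 and carry no composition scaling.

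Counts were tested with edgeR 4.0.16 in R 4.3.3 (TMM, filterByExpr with minimum count 10 and minimum total 15, quasi-likelihood F test, two-sided, Benjamini-Hochberg over all 12801 tested genes, threshold 0.05). Standard errors were taken as the absolute log2 fold change over the root of the F statistic. The biological coefficient of variation was 6.41%. The fit was run on counts simulated from its own means and dispersions, which does not test the choice of scaling. No replicates were merged, as the chi-square between any pair was 4.01 to 13.2 times its degrees of freedom. Ratios of immunoproteasome subunits were tested on log2 FPKM by exact permutation. Motifs were searched in RefSeq promoter windows.

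The members and lists were chosen with earlier results of these data known. Members past the threshold, or with a mean of at least 20 CPM, are given in every library, other tested members by group means, untested members by counts, and other lists by up to 4 genes with the smallest adjusted p. A few genes of those lists are not reported here. Alternatives were DESeq2 1.42.0, limma 3.58.1 (voom, and log2 FPKM with pseudocounts of 1 and 0.1, with and without a filter of 0.5 FPKM in 4 libraries), RLE factors, library totals, no filter, a filter of 1 CPM in 4 libraries, a block for the replicate number, single libraries left out in turn, and KO replicates 2 and 3 left out.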

Additional observations from a re-analysis of the deposited data

Results flagged for a closer look

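In 60 groups of 4 libraries (the 27 tested genes and the 3 subunit ratios in each group), 3 held a library whose gap to its neighbour exceeded Dixon's 95% critical share of the group's range, where chance flags about 1 in 20 groups. Parp14 in EV had its lowest value in replicate 3, with a gap of 0.921 of the range. Ddx58 in KO had its highest value in replicate 4 (0.896), and Tapbp in EV its highest value in replicate 3 (0.851). None of these 3 genes passed the threshold between the groups.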

How the results depend on the processing

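The number of genes of the 41 that rose, 8, stayed between 6 and 10 in every setting tried. It was 6 without KO replicates 2 and 3 together and 7 to 10 when single libraries were left out. Bst2, Irf9, Psmb10, H2-D1, Irf1 and Ifit1 passed in every setting, and Ifit3 also lost its call in limma on log2(FPKM + 1) without a filter (adjusted p = 0.0886). The number that fell was 0 with TMM and 3 with library totals (Ifit2, Ddx60, Tap1), 1 with no filter on low counts (Ddx60), 2 in limma on log2(FPKM + 1) and on log2(FPKM + 0.1) (Ifit2, Tap1), 1 in limma without a filter (Ifit2), and 0 to 1 when single libraries were left out. Over all genes, 3324 calls became 1974 without KO replicates 2 and 3 together and 2621 to 3359 without single libraries; fewer libraries were fitted there.

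The Psmb10 to Psmb7 log2 ratio of 0.27 was 0.30 without KO replicates 2 and 3 together (exact permutation p = 0.0667, the smallest possible there) and 0.25 to 0.29 without single libraries. The Psmb8 to Psmb5 ratio ranged from -0.57 to 0.19 and the Psmb9 to Psmb6 ratio from -1.02 to -0.41 without single libraries.

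Whether replicate numbers pair the libraries was not settled. Deviations of same-numbered libraries correlated weakly, at 0.121, -0.033, 0.060 and 0.086 for replicates 1 to 4. EV replicates 1, 3 and 4 correlated best with the KO library of the same number, and EV replicate 2 with KO replicate 3. With the replicate number as a block, 3737 genes passed in all, 8 of the 41 rose and 0 fell, and the Psmb10 ratio of 0.27 had p = 0.125 by an exact sign-flip test, the smallest that 4 pairs allow.

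Signs turned only for genes without a call, and the cause was not tested. Tapbp was -0.00059 in DESeq2, -1.12e-05 in limma-voom, -0.050 with library totals, -0.0066 without the filter, -0.050 in limma on log2(FPKM + 1) with or without a filter, -0.051 on log2(FPKM + 0.1), -0.033 without KO replicates 2 and 3 together, and -0.019 to 0.019 without single libraries. Erap1 was -0.031 with library totals, -0.027 in limma on log2(FPKM + 1) with or without a filter and -0.028 on log2(FPKM + 0.1). Without KO replicates 2 and 3 together, Oasl2 was -0.087, Rtp4 -0.031, Parp14 -0.063 and Dhx58 -0.12. Without single libraries, the range was -0.047 to 0.16 for Oasl2, -0.0082 to 0.12 for Parp14, -0.11 to 0.031 for Ddx58, -0.12 to 0.097 for Stat2, -0.00019 to 0.14 for H2-K1, -0.018 to 0.050 for Erap1 and -0.58 to 0.36 for Psmb8.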
